A study of Homo sapiens with 33 samples.

Results

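The 39 genes described here code for the machinery of glycolysis and for products of the response to low oxygen. They were named one by one as a gene module, with no measured value in the rule: 17 glycolytic enzymes, 3 glucose and lactate transporters, 4 regulators of glycolytic flux, the transcription factor subunit HIF1A with 2 of its prolyl hydroxylases, and 12 other genes that hypoxia-inducible factor (HIF) is known to induce. Earlier results of these data were known when the 39 were chosen. All 39 are among the 59428 gene entries of the count table, and all 39 had enough counts to be tested. Glycolysis splits glucose into pyruvate, which cells then send to the mitochondria or turn into lactate. HIF is a transcription factor whose alpha subunit is marked for destruction by prolyl hydroxylases (the EGLN genes) while oxygen is present. When oxygen falls, the subunit is spared and HIF raises transcription of glucose transporters, glycolytic enzymes, the kinases that keep pyruvate out of the mitochondria, and secreted factors such as VEGFA. Cancer cells, breast cancer lines among them, commonly run high glycolysis with oxygen at hand.

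Messenger RNA was counted by 3′ tag sequencing, a method that reads only the last stretch of a transcript before its poly(A) tail, in 33 libraries of 2 human breast cancer cell lines that the labels call MDA-MD-231 and MDA-MD-468. Wild-type cells of each line were given SY200, V50 or SY200/V50 for 3, 6 or 12 h, and the controls of each line were 1 DMSO library and 1 parental library, both at 0 h. No control is labelled 3, 6 or 12 h. In comparisons with control, treatment therefore cannot be told apart from hours in culture. The series describes these treatments as inhibition of CDK7, of CDK9 or of both, kinases that act on RNA polymerase II. The labels do not say which name stands for which kinase, nor the doses. A separate set in MDA-MD-231 held cells with an empty vector or with a knockout of CDK1, of CDK7, of CDK9 or of both CDK7 and CDK9 (CDK7/9 KO), each at 72 and 96 h, with 1 more parental library that entered no test. Whether knockout cells were single clones or mixed populations is not stated, nor the oxygen and glucose of the medium. Each line, treatment and time has 1 library, so p-values rest on the spread between libraries of different lines or times, and separate cultures are not stated.

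Library totals ran from 16985219 to 22859779 counts. Markers of the other line stayed well below a line's own: the summed level of the MDA-MB-231 marker list was 8530 to 24660 CPM (counts scaled to a common library total) in MDA-MD-231 and 1206 to 3422 in MDA-MD-468, and immune cell markers summed to at most 25.01 CPM. DMSO and parental libraries of a line differed beyond counting noise, with a chi-square per degree of freedom of 40.1 in MDA-MD-231 against 24.8 in MDA-MD-468. A further value moved with treatment and touches every result on the inhibitors. The share of counts from the 13 mitochondrially encoded mRNAs was 2.175 to 2.509% in the MDA-MD-231 controls and 3.209 to 5.046% with SY200/V50, and in MDA-MD-468 it was 3.881 to 3.932% and 7.06 to 13.52%. With V50 it was 2.879 to 3.816% and 7.383 to 7.75% in the 2 lines, and with SY200 2.422 to 2.907% and 5.66 to 6.669%. Levels below are CPM after edgeR's TMM scaling, which sets the bulk of genes equal between libraries, and "higher" and "lower" are on that scale. Scaled instead to the mitochondrially encoded mRNAs, the median gene of all genes tested fell by 1.33 (log2) with SY200/V50, by 0.917 with V50 and by 0.437 with SY200, and most members that were higher turned lower (ALDOC did not). Both readings are therefore given for most comparisons, though not for all. Mitochondrial scaling takes the mitochondrially encoded mRNAs as unchanged, which was not tested. Less mRNA from the other genes and more mitochondrially encoded mRNA cannot be told apart here. A gene is called where the Benjamini-Hochberg adjusted p of edgeR's quasi-likelihood F test over all genes was under 0.05, and a difference is a log2 fold change ± its standard error (SE).

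A common form of the DNA core that HIF binds is ACGTG, and the promoters of members were searched for it on both strands (ACGTG, or CACGT on the reverse). Other forms of the core were neither counted nor marked. The windows of 300 bases, from RefSeq (GRCh38.p14), ran from 250 bases before each annotated start to 50 after it. They covered 35 of the 39 members, and SLC2A3, VEGFA, BNIP3L and NDRG1 had no entry. At least 1 window held ACGTG in 21 of the 35 members, 60.0%, and in 24.9% of all 27305 genes. A gene with more annotated starts has more windows in which to hold a match. By window, ACGTG was in 25 of the members' 63 (39.7%) and in 21.4% of all 35116. By gene, members called higher with SY200/V50 held it in 9 of 16 cases (56.2%), members called lower in 5 of 9 (55.6%) and members not called in 7 of 10 (70.0%). These shares are given without a test. A match is a string of letters, not a measured binding site. The windows of 5 members that moved in different directions with SY200/V50 are shown, upstream stretches only, with ACGTG and its reverse in capitals (CACGTG where both overlap). DDIT4 and HK2 were lower, as was PFKFB3, while PGK1 and LDHA were higher on the TMM scale and lower on the mitochondrial one.
DDIT4: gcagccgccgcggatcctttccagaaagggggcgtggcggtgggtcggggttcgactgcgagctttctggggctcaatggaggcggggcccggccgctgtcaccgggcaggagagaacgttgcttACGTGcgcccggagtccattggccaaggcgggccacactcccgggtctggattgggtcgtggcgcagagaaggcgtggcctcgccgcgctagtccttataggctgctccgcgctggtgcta
HK2: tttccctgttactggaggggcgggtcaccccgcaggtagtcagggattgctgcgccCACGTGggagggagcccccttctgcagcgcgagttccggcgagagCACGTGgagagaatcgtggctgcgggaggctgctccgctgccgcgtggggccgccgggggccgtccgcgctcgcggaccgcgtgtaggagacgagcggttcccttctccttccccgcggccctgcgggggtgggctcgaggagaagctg
PFKFB3: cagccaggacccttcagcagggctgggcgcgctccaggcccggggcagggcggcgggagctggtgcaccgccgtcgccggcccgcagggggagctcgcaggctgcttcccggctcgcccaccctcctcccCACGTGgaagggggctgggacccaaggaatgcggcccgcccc
PGK1: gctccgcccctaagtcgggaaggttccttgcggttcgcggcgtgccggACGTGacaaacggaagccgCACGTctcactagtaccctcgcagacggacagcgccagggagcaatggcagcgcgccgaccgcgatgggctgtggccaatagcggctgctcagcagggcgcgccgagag
LDHA: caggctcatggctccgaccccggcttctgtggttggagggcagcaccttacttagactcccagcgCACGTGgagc
They lie on the plus strand at chr10:72273674-72273919 (DDIT4), chr2:74834920-74835169 (HK2), chr10:6202694-6202865 (PFKFB3), chrX:78103998-78104173 (PGK1) and chr11:18394313-18394387 (LDHA). Those of DDIT4 and LDHA lie before their gene, and the other 3 lie inside the annotated span of theirs but in no annotated exon. HK2 and PGK1 hold 2 matches each, and the other 3 hold 1.

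With SY200/V50 most glycolytic enzymes were higher on the TMM scale, while the regulators and other HIF-induced genes were more often lower than higher. Against the controls, over the mean of the 3 times, 16 members were called higher and 10 lower, where 24% of all 18911 genes tested were higher and 24.2% lower (48.2% in all). Among the 17 enzymes 13 were higher and 1 was lower, with a median difference of 0.731 where the median of all genes was 0.0875. The direction of 12 of the 13 turned under mitochondrial scaling, the exception being ALDOC at 0.37. Of the 39 members 36 were then called lower and none higher, and of all 18911 genes 15661 were lower and 171 higher. Members that did not overlap the controls, with all 3 libraries beyond both controls in both lines, were 13 above (16% of all genes) and 9 below (15.7%).

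**Figure D1:**
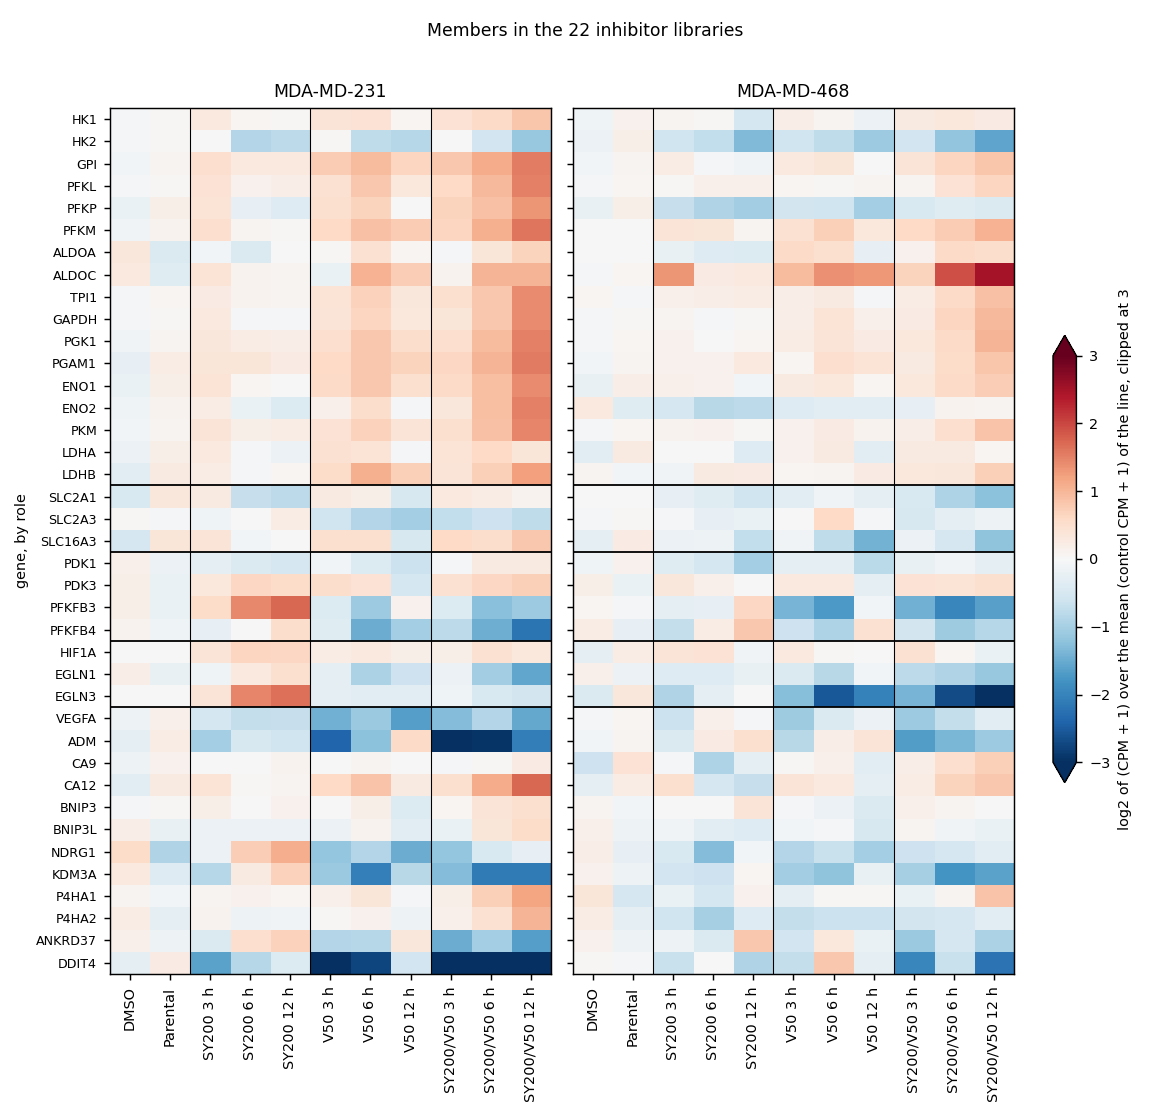
Level of each of the 39 members (rows, by role) in each of the 22 inhibitor libraries (columns), as log2 of TMM-scaled CPM + 1 over the mean control CPM + 1 of the same line, with colours clipped at 3 in either direction. With SY200/V50 most enzyme cells are above 0 (red), which turns for all enzymes but ALDOC under mitochondrial scaling, while HK2, PFKFB3, ADM, KDM3A and DDIT4 are below 0 (blue), apart from HK2 at 3 h in MDA-MD-231.

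GAPDH, which oxidises glyceraldehyde 3-phosphate, stood at 4669 and 4944 CPM in the MDA-MD-231 controls and at 6150, 8412 and 12808 at 3, 6 and 12 h of SY200/V50. Its MDA-MD-468 levels were 3514 and 3640 in the controls and 4265, 5562 and 6973 with treatment. Every treated library was above both controls of its line, and levels followed the order of time in both. The difference was 0.74 ± 0.08, 1.67-fold (adjusted p = 2.50e-06), and −0.69 under mitochondrial scaling. PGK1, the phosphoglycerate kinase that makes the first ATP of the pathway, read 409 and 467.6 CPM in the MDA-MD-231 controls and 621, 843 and 1245 with treatment. In the other line it read 539 and 584, then 705, 836 and 1139. Again no treated library overlapped a control. PGK1 differed by 0.81 ± 0.09, 1.75-fold (adjusted p = 3.70e-06; −0.63 under mitochondrial scaling). GPI, which turns glucose 6-phosphate into fructose 6-phosphate, differed by 0.88 ± 0.11 (adjusted p = 1.04e-05), with 299 and 333 CPM in the MDA-MD-231 controls and 553, 682 and 920 with treatment, and 408 and 462, then 566, 680 and 781 in MDA-MD-468. It turned to −0.56 under mitochondrial scaling. PFKM, the muscle form of phosphofructokinase, had 54.0 and 63.2 CPM in the MDA-MD-231 controls and 92.4, 125 and 180 with treatment, against 9.32 and 9.04, then 14.5, 16.3 and 19.8 in MDA-MD-468. Its difference was 1.002 ± 0.13 (adjusted p = 1.28e-05; −0.42 under mitochondrial scaling). The other 9 enzymes called higher on the TMM scale, in pathway order, were HK1, PFKL, ALDOC, TPI1, PGAM1, ENO1, PKM, LDHA and LDHB, from 0.33 (LDHA) to 1.72 (ALDOC), and of these only ALDOC stayed above 0 under mitochondrial scaling. ALDOC was near the floor in MDA-MD-468, at 0.275 and 0.395 CPM in the controls and 1.14, 4.13 and 6.49 with treatment. In MDA-MD-231 it read 4.67 and 2.58, then 4.01, 8.37 and 8.39. In the fit that let treatments differ by line it was called higher in MDA-MD-468 (3.255 ± 0.52) and not in MDA-MD-231 (0.86 ± 0.39, adjusted p = 0.0952). The LDHA call was lost without any 1 of 6 libraries (the DMSO library of either line, the SY200/V50 6 h library of MDA-MD-231, the 3 h one of MDA-MD-468 and the 12 h one of either line). PFKP, ALDOA and ENO2 were not called, at 0.23, 0.39 and 0.46. In the fit by line PFKP (0.96 ± 0.18, adjusted p = 0.000732) and ENO2 (0.94 ± 0.22, adjusted p = 0.00356) were called higher in MDA-MD-231. There 39.5% of all genes were called (20% higher and 19.5% lower), and 31.7% in MDA-MD-468 (13.5% and 18.2%). PFKP and ENO2 were not called in MDA-MD-468, where PFKP read 107 and 142 CPM in the controls, then 91.1, 96.1 and 92.3. HK1, PFKL and LDHA were called in MDA-MD-231 alone. Counts of ALDOA and LDHB are uncertain, because AC093512.2 and AC010197.2 overlap them on the same strand, and reads of several members could be split with pseudogene copies. Counts on listed copies came to 29% of the gene's own for LDHB, 20.8% for ALDOA, 14.8% for TPI1 and 1.85% for GAPDH, and to 12% for BNIP3, a HIF-induced member.

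HK2, the inducible hexokinase that traps glucose in the cell, went the other way from most of its pathway on the TMM scale and was lower on both. It read 157 and 166 CPM in the MDA-MD-231 controls and 163, 109 and 72.7 at 3, 6 and 12 h of SY200/V50, so the 3 h library lay between the controls and the later ones below. In MDA-MD-468 it read 101 and 129, then 77.6, 50.4 and 37.9, all below the controls. The difference was −0.85 ± 0.14, 1.80-fold lower (adjusted p = 0.000105), while HK1, the constitutive hexokinase, was 0.44 ± 0.11 higher (adjusted p = 0.00254) and turned lower under mitochondrial scaling. Over both lines none of the transporters was called. The glucose carriers SLC2A1 and SLC2A3 differed by −0.29 ± 0.22 and −0.83 ± 0.39 and the lactate exporter SLC16A3 by 0.06 ± 0.29. In the fit that let treatments differ by line, SLC2A1 was called lower in MDA-MD-468 (−0.86 ± 0.23, adjusted p = 0.0106), where 31.7% of all genes were called (13.5% higher and 18.2% lower). It read 229 and 235 CPM in the controls there and 170, 122 and 98.8 with treatment, all below them.

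The regulators of flux divided. PFKFB3 makes fructose 2,6-bisphosphate, the activator of phosphofructokinase. It stood at 87.5 and 67.3 CPM in the MDA-MD-231 controls and at 58.0, 32.1 and 35.8 with SY200/V50, and at 46.7 and 42.7, then 15.7, 10.7 and 13.8 in MDA-MD-468. No treated library reached a control, and PFKFB3 was 2.60-fold lower (−1.38 ± 0.21, adjusted p = 4.35e-05). Its relative PFKFB4 read 14.9 and 12.4, then 7.49, 4.28 and 2.23 CPM in MDA-MD-231 and 9.73 and 6.80, then 5.28, 3.43 and 4.13 in MDA-MD-468. It too lay below the controls throughout and was 2.48-fold lower (−1.31 ± 0.27, adjusted p = 0.000805). PDK3, a kinase that shuts off pyruvate dehydrogenase, read 57.6 and 44.3 CPM in the MDA-MD-468 controls and 68.8, 68.1 and 71.4 with treatment, and 7.59 and 5.57, then 9.47, 10.7 and 11.4 in MDA-MD-231. It was above the controls throughout, a difference of 0.55 ± 0.15 (adjusted p = 0.00701; −0.88 under mitochondrial scaling). PDK1, of the same family and the best known HIF target in it, was not called at −0.02 ± 0.15.

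HIF1A itself was not called (0.22 ± 0.14, adjusted p = 0.203; −1.21 under mitochondrial scaling). Its MDA-MD-231 levels were 178 and 172 CPM in the controls and 197, 241 and 217 with SY200/V50, and in MDA-MD-468 the values 196, 148 and 125 overlapped the controls' 118 and 168. These are mRNA levels, and HIF-1 alpha protein was not measured. The hydroxylase EGLN3 was expressed mainly in MDA-MD-468, where it read 49.5 and 85.0 CPM in the controls and 25.1, 9.55 and 4.99 with treatment. In MDA-MD-231 the controls had 0.479 and 0.451 CPM, the 3 and 6 h libraries 0.349 and 0.0629, and the 12 h library 0 counts, which allows up to 0.231 CPM. EGLN3 was 5.24-fold lower over both lines (−2.39 ± 0.43, adjusted p = 0.000226). EGLN1, the main oxygen sensor of the family, read 17.2 and 13.4, then 8.44, 7.73 and 6.36 CPM in MDA-MD-468, and in MDA-MD-231 11.9 and 8.53, then 8.89, 4.404 and 2.77. Its 3 h library in MDA-MD-231 lay between the controls and all others were below, with a difference of −1.03 ± 0.22 (adjusted p = 0.000889).

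Of the 12 other HIF-induced genes 5 were lower, 2 higher and 5 not called, with a median of −0.261. ADM codes for the vasodilator peptide adrenomedullin. It read 45.0 and 64.6 CPM in the MDA-MD-231 controls and 4.65, 6.29 and 12.2 with SY200/V50, and 9.09 and 10.3, then 2.32, 3.11 and 4.0015 in MDA-MD-468. The groups were far apart in both lines, and the difference was −2.36 ± 0.27, 5.15-fold lower (adjusted p = 3.29e-06). DDIT4, an inhibitor of mTORC1 signalling, read 57.9 and 84.3, then 3.54, 3.90 and 7.47 CPM in MDA-MD-231. In MDA-MD-468 it read 62.6 and 59.0, then 15.0, 37.7 and 12.3. All treated libraries were below the controls, and the difference was −2.75 ± 0.53, 6.73-fold lower (adjusted p = 0.000444). Its antisense neighbour DDIT4-AS1 overlaps it, and whether counting used strand is not given. KDM3A, a histone H3 lysine 9 demethylase, read 56.9 and 34.9, then 18.1, 9.81 and 9.86 CPM in MDA-MD-231 and 56.5 and 45.9, then 25.2, 14.2 and 16.2 in MDA-MD-468, a difference of −1.71 ± 0.23 (adjusted p = 1.45e-05). VEGFA, the main angiogenic growth factor, read 137 and 169, then 61.8, 82.8 and 52.4 CPM in MDA-MD-231 and 90.9 and 100, then 44.1, 57.9 and 74.7 in MDA-MD-468. It was 1.99-fold lower (−0.99 ± 0.20, adjusted p = 0.000699), with no overlap in either line. The fifth member called lower was ANKRD37 (−2.22 ± 0.37, at 3.51 CPM or less throughout the inhibitor controls), and the 2 called higher were the collagen prolyl hydroxylase P4HA1 and the carbonic anhydrase CA12, at 0.49 and 1.14. P4HA1 and CA12 turned to −0.95 and −0.28 under mitochondrial scaling. The P4HA1 call was lost without the DMSO library of MDA-MD-231, the parental library of either line, the SY200/V50 3 h or 6 h library of MDA-MD-231 or the 12 h one of MDA-MD-468. These 3 are named as the rest of the members called, after their values were seen. CA9, BNIP3, BNIP3L, NDRG1 and P4HA2 were not called, between −0.55 and 0.50.

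**Figure D2:**
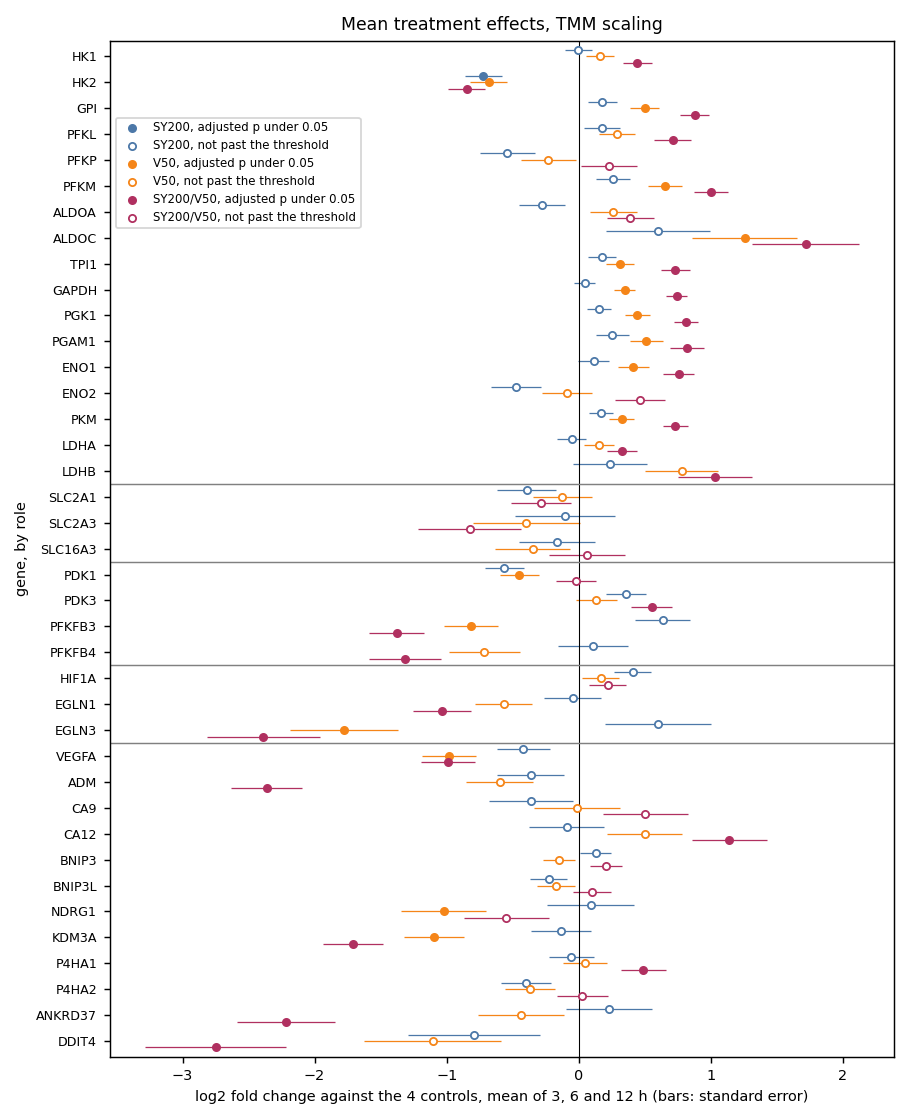
Log2 fold change ± SE of each member (TMM scale) against the 4 control libraries, as the mean of 3, 6 and 12 h in both lines, for SY200, V50 and SY200/V50, with filled points where the adjusted p was under 0.05. Enzymes other than HK2 lie above 0 with SY200/V50, which turns for all but ALDOC under mitochondrial scaling, and EGLN3, ADM, KDM3A, DDIT4 and PFKFB3 lie well below 0.

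With V50 alone the members called higher were all enzymes, and those called lower were mostly regulators and HIF-induced genes. It had 9 members higher and 7 lower, where 10.4% of all genes were higher and 11.9% lower (22.3% in all). The lines differed in which members passed. In the fit by line 9 enzymes were higher and none lower in MDA-MD-231 (15.7% of all genes called, 7.69% higher and 7.98% lower). In MDA-MD-468 only ALDOC, near the floor there, was higher and HK2 and PFKP were lower (6.65%, or 2.97% and 3.69%), so GAPDH, PGK1, GPI and PFKM were called in the first line alone. Of the 12 other HIF-induced genes 5 were lower in MDA-MD-231 and none was called in MDA-MD-468. The test of the difference between lines called none of them. Of the 9 enzymes 8 turned below 0 under mitochondrial scaling, the exception again being ALDOC (0.42). Then 35 members were called lower and none higher, and of all 18911 genes 13964 were lower and 309 higher. PFKM had 89.1, 108 and 101 CPM with V50 in MDA-MD-231 and 13.02, 15.6 and 11.7 in MDA-MD-468, all above the controls, a difference of 0.65 ± 0.13 (adjusted p = 0.00242; −0.26 under mitochondrial scaling). PGK1 differed by 0.44 ± 0.09 (adjusted p = 0.00307; −0.48), GPI by 0.50 ± 0.11 (adjusted p = 0.00479; −0.43) and GAPDH by 0.35 ± 0.08 (adjusted p = 0.00603; −0.57), with the mitochondrially scaled value second in each case. Without the V50 6 h library of MDA-MD-231, 10 members were called in place of 16. HK2 was again the 1 enzyme called lower, at 165, 95.2 and 89.6 CPM in MDA-MD-231 and 75.4, 67.6 and 53.6 in MDA-MD-468 (−0.68 ± 0.14, adjusted p = 0.00291).

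The remaining members lower with V50 were PFKFB3, PDK1, EGLN3, KDM3A, VEGFA and NDRG1. PFKFB3 read 58.2, 36.1 and 84.2 CPM in MDA-MD-231, where the 12 h library overlapped the controls, and 16.3, 12.9 and 42.1 in MDA-MD-468, where it did not (−0.82 ± 0.20, adjusted p = 0.00959). KDM3A read 20.6, 10.3 and 25.3 CPM in MDA-MD-231 and 24.4, 21.7 and 43.5 in MDA-MD-468, below the controls in all 6 (−1.10 ± 0.22, adjusted p = 0.00298). VEGFA read 55.8, 70.3 and 47.9 and then 45.2, 70.4 and 84.5, also below in all 6 (−0.98 ± 0.20, adjusted p = 0.00312). EGLN3 was below its controls in all 6 too, at 27.3, 10.6 and 15.6 CPM in MDA-MD-468 (−1.78 ± 0.41, adjusted p = 0.00586). In MDA-MD-231 it was near the floor, at 0.204, 0.170 and 0.152 CPM against 0.479 and 0.451 in the controls. The fit by line called EGLN3 lower in MDA-MD-468 (−2.02 ± 0.27) and did not call it in MDA-MD-231 (adjusted p = 0.0896). KDM3A, VEGFA and EGLN3 were the members wholly below the controls (5.09% of all genes), and PFKM, GAPDH, PGK1 and PKM those wholly above (8.8%). PDK1 read 12.5 and 9.71 CPM in the MDA-MD-231 controls and 10.4, 8.17 and 6.78 with V50, and 23.0 and 27.5, then 20.5, 20.6 and 13.97 in MDA-MD-468. Its 3 h library overlapped the controls in MDA-MD-231 only. Its difference (−0.45 ± 0.15, adjusted p = 0.0388) was no longer called without any 1 of 12 libraries. NDRG1, a stress-induced gene that differed already between DMSO and parental MDA-MD-231 (158 and 57.5 CPM), was at −1.02 ± 0.32 (adjusted p = 0.0303). It was no longer called without the DMSO library of either line or without any of the 3 V50 libraries of MDA-MD-231. HIF1A was not called (0.17 ± 0.14, adjusted p = 0.409; −0.75 under mitochondrial scaling).

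SY200 alone left nearly all members uncalled, as it did nearly all genes. Over the mean of the times HK2 was the 1 member called, against 1.98% of all genes (0.968% higher and 1.02% lower). Under mitochondrial scaling 13 members were called lower, as were 5097 of all 18911 genes, with 202 genes higher. In the fit by line HK2 was called in neither line, while PFKFB3 (1.26 ± 0.22, adjusted p = 0.0346) and EGLN3 (2.27 ± 0.40, adjusted p = 0.0341) were called higher in MDA-MD-231, where 0.19% of all genes were called (0.0952% in each direction). HK2 read 164, 87.4 and 94.0 CPM in MDA-MD-231 and 76.1, 68.5 and 45.3 in MDA-MD-468 (−0.72 ± 0.14, adjusted p = 0.0173). Only its 3 h library in MDA-MD-231 overlapped the controls. HK2 took a similar course with V50 and with SY200/V50, and no control of the same hours was available to compare. The call was lost without the SY200 6 h library of MDA-MD-231, the SY200 3 h library of MDA-MD-468 or the parental library of MDA-MD-468, and 2 members were called without the SY200/V50 12 h library of either line or the SY200 6 h library of MDA-MD-468. PDK1, at 8.92, 7.97 and 7.51 CPM in MDA-MD-231 and 19.3, 17.4 and 11.9 in MDA-MD-468, was below the controls in all 6 libraries, the 1 member to be so (3.35% of all genes), and missed the threshold at −0.56 ± 0.15 (adjusted p = 0.0576). TPI1 and PGAM1 were above them in all 6 (4.46%), at 0.17 ± 0.11 and 0.25 ± 0.13, neither called. VEGFA differed by −0.42 ± 0.20 (adjusted p = 0.306), HIF1A by 0.41 ± 0.14 (adjusted p = 0.138; −0.02 under mitochondrial scaling) and GAPDH by 0.04 ± 0.08 (adjusted p = 0.836; −0.39 under mitochondrial scaling).

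At 12 h of SY200 the regulators PFKFB3 and PDK1 were called in opposite directions, and HK2 was called lower (3 members in all, where 2.43% of all genes were called, 1.3% higher and 1.14% lower). PFKFB3 read 114, 213 and 258 CPM at 3, 6 and 12 h in MDA-MD-231, all above its controls, and 36.8, 37.6 and 69.6 in MDA-MD-468, where only 12 h was above. At 12 h the differences were 1.16 ± 0.27 for PFKFB3 (adjusted p = 0.0307), −0.83 ± 0.21 for PDK1 (adjusted p = 0.0449) and −1.07 ± 0.20 for HK2 (adjusted p = 0.0134). Under mitochondrial scaling 3 members were called at 12 h, all lower, where 985 of all 18911 genes were lower and 159 higher. The PDK1 call was lost without any 1 of 15 of the 22 libraries, that of PFKFB3 without any 1 of 5 and that of HK2 without either 12 h SY200 library, and with DMSO alone as control no member was called. No member was called without the 12 h SY200 library of either line, and 1 was called without the parental library of MDA-MD-468. With SY200 at 3 h and 6 h no member was called in edgeR, where 0.423% of all genes were called at 3 h (0.159% higher and 0.264% lower) and 0.264% at 6 h (0.206% and 0.0582%). Between 12 and 3 h of SY200 no member was called either (1.95% of all genes, 0.978% higher and 0.968% lower), and 1 was without the SY200/V50 12 h library of either line.

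At 3 h of V50 the members called were ADM and VEGFA, both lower, where 4.1% of all genes were called (0.846% higher and 3.26% lower). ADM read 9.77 CPM at 3 h in MDA-MD-231 against 4.99 in MDA-MD-468, a difference of −1.76 ± 0.38, 3.40-fold lower (adjusted p = 0.0156), and VEGFA was 2.44-fold lower (−1.29 ± 0.29, adjusted p = 0.0199). ADM then read 22.7 and 82.7 CPM at 6 and 12 h in MDA-MD-231 and 11.2 and 12.9 in MDA-MD-468, and both 12 h libraries were above their controls. Its 12 h level was 4.91-fold its 3 h level (2.29 ± 0.42, adjusted p = 0.00324). With DESeq2 size factors 1 member was higher and 2 lower at 3 h. At 6 h 9 members were higher and 6 lower (23.4% of all genes, 11.9% higher and 11.5% lower), and at 12 h 3 were higher and 3 lower (15.2%, or 8.01% and 7.2%). Under mitochondrial scaling no member was higher at any of the 3 times and 20, 25 and 32 were lower. Of all 18911 genes 7691, 10618 and 11650 were then lower. Between 12 and 3 h of V50 the members called were ADM, PDK3 (−0.86 ± 0.24, adjusted p = 0.0249) and HK2 (−0.69 ± 0.22, adjusted p = 0.0464), where 12.8% of all genes were called (7.97% higher and 4.84% lower). Under mitochondrial scaling ADM was still called higher and PDK3 lower, HK2 was not called and SLC16A3 was called lower. Of all 18911 genes 968 were then higher and 1051 lower. These counts leaned on single libraries. Without the V50 3 h library of either line no member was called at 3 h, while 4 were without the SY200 6 h library of either line and 5 without the parental library of MDA-MD-468. Without the V50 6 h library of MDA-MD-231 none was called at 6 h. For 12 h, none was called without the V50 12 h library of MDA-MD-231, 3 without that of MDA-MD-468, and 10 without the SY200/V50 12 h library of either line. Between 12 and 3 h none was called without the V50 3 h or 12 h library of MDA-MD-231 and 1 without the V50 3 h library of MDA-MD-468. The HK2 call there was lost without any 1 of 16 libraries, that of PDK3 without those 3, and that of ADM without the first 2.

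**Figure D3:**
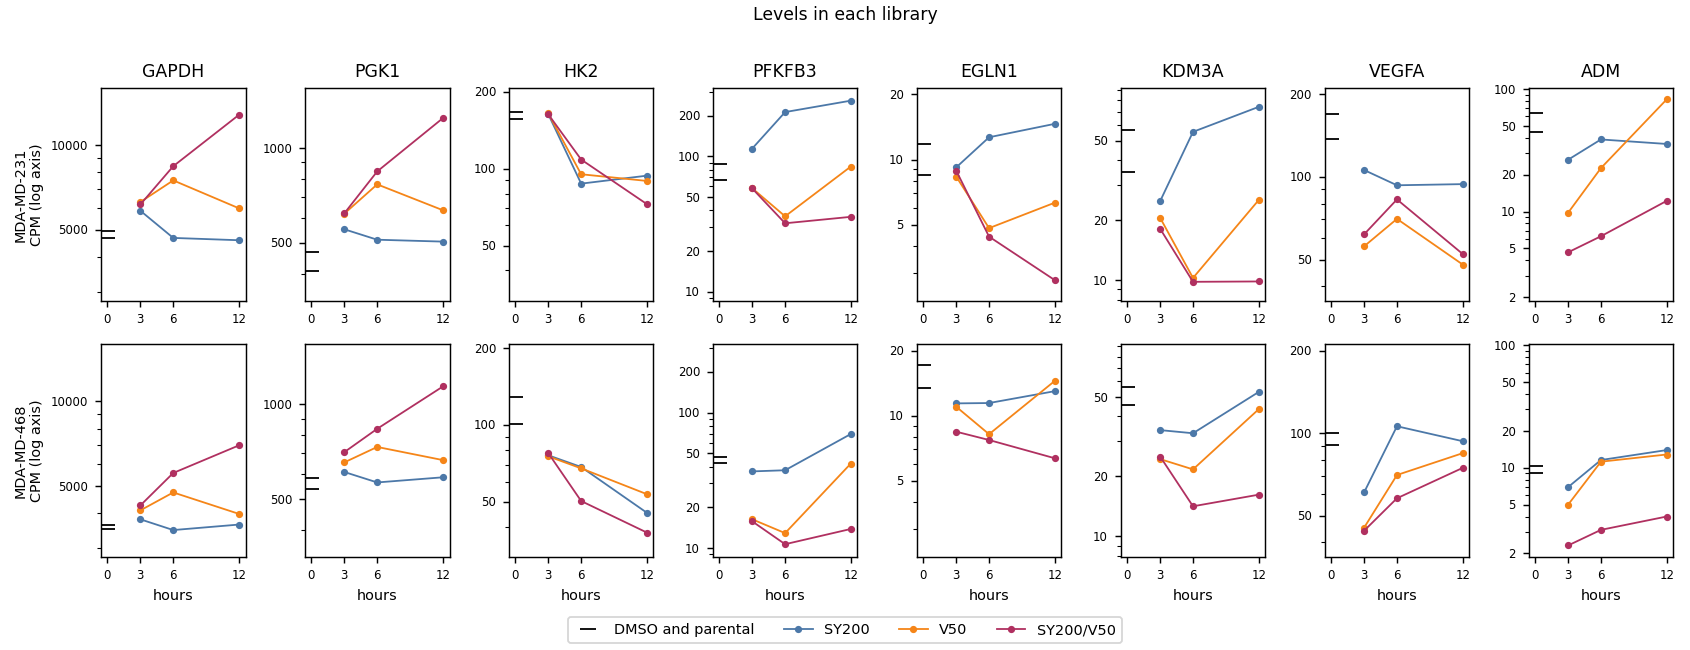
TMM-scaled CPM (log axis) of GAPDH, PGK1, HK2, PFKFB3, EGLN1, KDM3A, VEGFA and ADM against hours of treatment, 1 library a point, with MDA-MD-231 above and MDA-MD-468 below and the DMSO and parental libraries as dashes at 0 h. With V50, ADM fell at 3 h to 9.77 and 4.99 CPM and was at 82.7 and 12.9 at 12 h, while with SY200/V50 it stayed at or below 12.2.

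The number of members called with SY200/V50 grew with time. At 3 h 3 members were higher and 6 lower, where 7.54% of all genes were called (1.88% higher and 5.66% lower). At 6 h the counts were 14 and 9 (34.7%, or 17.3% and 17.5%), and at 12 h 17 and 10 (49.6%, or 25.9% and 23.7%). With DESeq2 size factors the 3 h counts were 5 and 6. Under mitochondrial scaling no member was higher at any time and 22, 34 and 36 were lower, as were 8629, 14031 and 15863 of all 18911 genes. Between 12 and 3 h 11 members were higher and 2 lower (18.3%, or 9.57% and 8.73%), of which 10 and 1 were enzymes. GAPDH differed by 0.89 ± 0.12 (adjusted p = 0.00045), PGK1 by 0.85 ± 0.14 and PKM, the last enzyme before pyruvate, by 0.84 ± 0.15. The 3 turned to −0.28, −0.32 and −0.33 under mitochondrial scaling, where none of the 39 was called higher and 16 were lower (156 and 10440 of all 18911 genes). The member outside the enzymes that was higher was P4HA1 (1.06 ± 0.26, adjusted p = 0.0103; −0.11 under mitochondrial scaling). HK2 (−1.10 ± 0.22, adjusted p = 0.00311) and EGLN3 (−2.34 ± 0.76, adjusted p = 0.0418) were lower. Single libraries moved these counts too. At 3 h 1 member was called without the SY200/V50 3 h library of either line and 4 without the DMSO library of MDA-MD-231. At 6 h 14 were called without the SY200/V50 6 h library of MDA-MD-231 and 13 without that of MDA-MD-468. Between 12 and 3 h 4 were called without the SY200/V50 3 h library of MDA-MD-231, 5 without that of MDA-MD-468 and 7 without the SY200/V50 12 h library of MDA-MD-231. The EGLN3 call there was lost without any 1 of 7 libraries, that of P4HA1 without either 3 h library and that of HK2 without that of MDA-MD-231.

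Set against V50 itself, SY200/V50 had 14 members higher and 5 lower (19.9% of all genes called, 7.52% higher and 12.4% lower). Under mitochondrial scaling 0 were higher and 13 lower, where 8 of all 18911 genes were higher and 6599 lower. This comparison shares its SY200/V50 libraries with those above. Enzymes were higher in 10 of 17 cases and lower in none, on the TMM scale, among them GAPDH (0.39 ± 0.07, adjusted p = 0.0015), PKM (0.41 ± 0.08), PGK1 (0.37 ± 0.08) and TPI1 (0.42 ± 0.09), and these 4 turned to between −0.15 and −0.09 under mitochondrial scaling. ADM was −1.76 ± 0.25 lower than with V50 (adjusted p = 0.000296) and ANKRD37 −1.78 ± 0.36 (adjusted p = 0.00291). DDIT4 (−1.64 ± 0.48, adjusted p = 0.0227), KDM3A (−0.62 ± 0.21, adjusted p = 0.0451) and PFKFB3 (−0.56 ± 0.19, adjusted p = 0.044) were also lower. PDK1 (0.43 ± 0.14), PDK3 (0.42 ± 0.14) and BNIP3 (0.36 ± 0.11), a mitophagy receptor, were higher and turned to −0.08, −0.10 and −0.16 under mitochondrial scaling. VEGFA differed by −0.01 ± 0.18 (adjusted p = 0.985; 0.03 with DESeq2 size factors), and HIF1A by 0.05 ± 0.12 (−0.46 under mitochondrial scaling). The count of 19 members fell by more than 1.5 times without any 1 of 12 of the 22 libraries. It was 12 without the SY200 3 h library of either line, the V50 12 h library of MDA-MD-231 or the SY200/V50 6 h library of MDA-MD-468. It was 10 without the V50 12 h and 9 without the SY200/V50 3 h library of MDA-MD-468. Without the V50 3 h, SY200/V50 3 h or SY200/V50 12 h library of MDA-MD-231 it was 8. Without the SY200/V50 6 h library of MDA-MD-231 or the V50 3 h library of MDA-MD-468 it was 7, and without the V50 6 h library of MDA-MD-468 it was 6. Calls of KDM3A, PFKFB3, PDK1, PDK3, BNIP3 and DDIT4 were lost without any 1 of 12, 12, 13, 14, 8 and 7 libraries.

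Set against SY200, SY200/V50 had 22 members higher and 9 lower (46% of all genes called, 23.8% higher and 22.2% lower), with 16 of the 17 enzymes higher, HK2 the exception. Under mitochondrial scaling no member was called higher and 30 were lower, where 70 of all 18911 genes were higher and 13575 lower. GAPDH differed by 0.70 and PGK1 by 0.66, turning to −0.30 and −0.35. PFKFB3 was 4.04-fold lower (−2.02 ± 0.19), with 213 against 32.1 CPM at 6 h in MDA-MD-231 as an example, and EGLN3 7.94-fold lower (−2.99 ± 0.42). ADM (−1.998 ± 0.25) and KDM3A (−1.58 ± 0.21) were lower as well. VEGFA was −0.57 ± 0.18 lower (adjusted p = 0.0173), a call lost without the SY200 3 h library of MDA-MD-231 or the SY200/V50 3 h or 6 h library of MDA-MD-468.

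**Figure D4:**
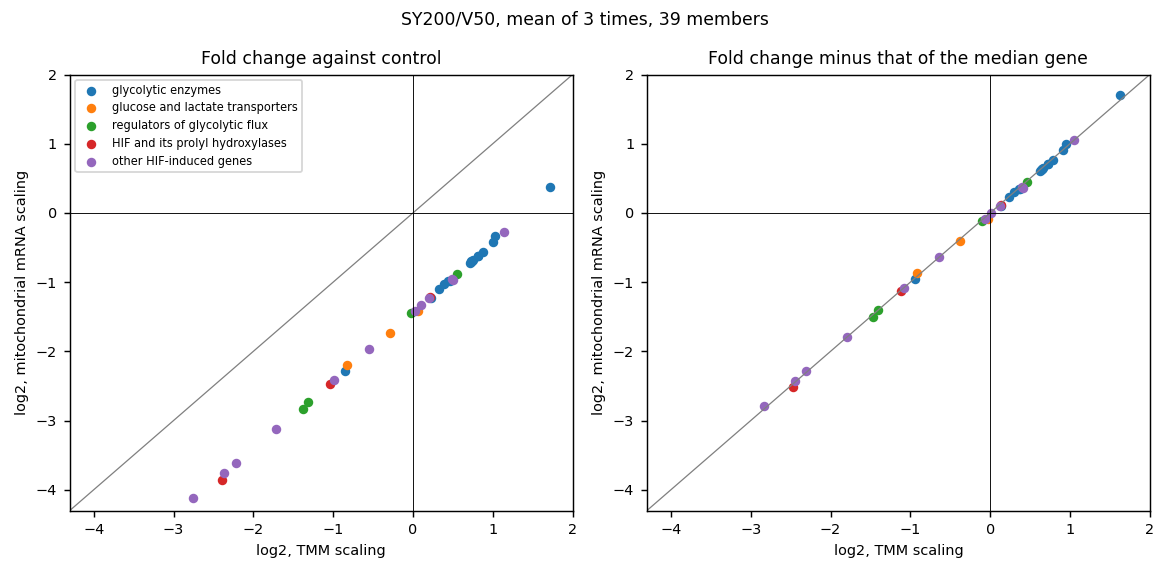
Log2 fold change of each member with SY200/V50 against control under TMM scaling (horizontal) and under scaling to the mitochondrially encoded mRNAs (vertical), as fitted on the left and less the median of all genes tested (0.0875 and −1.33) on the right, coloured by role, with the diagonal where both scalings are equal. Enzymes other than HK2 are above 0 under the first and, ALDOC apart, below 0 under the second. On the right, taking off each median removes by construction the shift that all genes share.

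The 2 lines started from different levels of these genes. In the controls 7 members were higher and 21 lower in MDA-MD-468 than in MDA-MD-231, where 53.8% of all genes differed (28.8% higher and 25% lower), and under mitochondrial scaling 4 were higher and 28 lower (3039 and 8257 of all 18911 genes). Of the enzymes 3 were higher and 11 lower, of the transporters all 3 were lower. The lactate exporter SLC16A3 read 233 and 428 CPM in the MDA-MD-231 controls and 3.81 and 6.06 in MDA-MD-468 (−6.06 ± 0.41), and the neuronal-type glucose carrier SLC2A3 read 35.3 and 33.4 against 0.367 and 0.439 (−6.39 ± 0.49). PFKM was 6.38-fold lower in MDA-MD-468 (−2.67 ± 0.20), P4HA1 lower by −2.82 ± 0.28 on the log2 scale, and ADM 5.65-fold lower (−2.50 ± 0.36). PDK3 was 7.73-fold higher (2.95 ± 0.25, from 7.59 and 5.57 to 57.6 and 44.3 CPM), and EGLN3 was higher by 7.16 ± 0.42 (log2). CA9, the membrane carbonic anhydrase used as a hypoxia marker, read 13.8 and 30.0 CPM in MDA-MD-468 against 0.205 in the parental library and 0 counts in the DMSO library of MDA-MD-231, which allows up to 0.12 CPM. HIF1A (−0.29 ± 0.21, adjusted p = 0.26) and VEGFA (−0.68 ± 0.29, adjusted p = 0.061) were not called, and GAPDH was −0.43 ± 0.10 lower in MDA-MD-468. PFKFB3 (−0.79 ± 0.24, adjusted p = 0.0104) lost its call without the DMSO library of MDA-MD-231 or the parental library of MDA-MD-468.

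Whether a treatment acted differently in the lines could be tested, and edgeR called no member for SY200, V50 or SY200/V50, as it called none of all genes (0%). At an unadjusted p under 0.05 there were 5, 11 and 15 members and 1048, 1873 and 3009 genes, and DESeq2 called EGLN3 for SY200, PFKP for V50, and PFKP and ALDOC for SY200/V50. Without 1 of 5 libraries (V50 12 h of either line, SY200/V50 3 h of either line, or DMSO of MDA-MD-468) 1 member was called for SY200/V50. EGLN3 under SY200 was the widest gap, chosen after its values were seen: 0.915, 3.07 and 3.60 CPM in MDA-MD-231, above the controls there, and 35.2, 54.6 and 67.5 in MDA-MD-468, within or below them. The difference of the effects was −2.67 ± 0.48 (adjusted p = 0.309). PFKFB3 under SY200, chosen in the same way, differed by −1.22 ± 0.30 (adjusted p = 0.498), with an effect of 1.26 ± 0.22 in MDA-MD-231 against 0.05 ± 0.22 in MDA-MD-468.

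Other genes of the same pathways, from a list that holds none of the 39, were read beside them. Of 12 further genes of the HIF machinery 2 were higher and 6 lower with SY200/V50, where 48.2% of all genes were called (24% higher and 24.2% lower), with the elongin partners of the VHL complex ELOB (0.90 ± 0.12) and ELOC (0.74 ± 0.11) higher and the hydroxylase EGLN2 lower (−1.69 ± 0.30). Of 19 tested of 25 listed genes of glycolysis and pyruvate use, 9 were higher and 3 lower, with phosphoglucomutase PGM1 (0.78 ± 0.11), which links glucose 1-phosphate and glucose 6-phosphate, higher. ELOB, ELOC and PGM1 turned to between −0.69 and −0.53 under mitochondrial scaling. PDK4, a further pyruvate dehydrogenase kinase, was lower at a level of few counts. Of 39 further HIF-induced genes 7 were higher and 17 lower, among them the sterol regulator INSIG2 (−1.16 ± 0.14), the lipid droplet protein HILPDA (−2.27 ± 0.31) and the repressor BHLHE40 (−1.52 ± 0.22). INSIG2 read 25.9 and 30.8, then 18.4, 12.3 and 9.55 CPM in MDA-MD-231 and 38.3 and 39.2, then 31.2, 17.0 and 8.79 in MDA-MD-468, below the controls throughout. With V50, where 22.3% of all genes were called (10.4% higher and 11.9% lower), the 3 lists gave 2 higher and 2 lower, 2 and 1, and 0 and 13, the last again with INSIG2 (−0.71 ± 0.14) and HILPDA (−1.18 ± 0.30) and with the demethylase KDM4C (−0.72 ± 0.16). With SY200, over the mean of the times, none of the genes on the 3 lists was called in edgeR (1.98% of all genes).

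In the knockout set the targeted mRNAs were reduced, not lost. CDK1 read 81.7 and 84.3 CPM in CDK1 KO (72 and 96 h) against 178.3 and 282.6 in empty vector (−1.46 ± 0.17, adjusted p = 0.0137), though the parental library held 84.4. CDK7 read 15.3 and 13.7 in CDK7 KO and 15.6 and 17.1 in CDK7/9 KO against 49.0 and 66.5, and CDK9 33.2 and 36.4 in CDK9 KO and 34.3 and 36.6 in CDK7/9 KO against 70.4 and 62.1. Against empty vector, edgeR called none of the 39 members with CDK1 KO (0.352% of all genes), CDK7 KO (0.0238%) or CDK9 KO (8.16%; 4.34% higher and 3.82% lower). At an unadjusted p under 0.05 there were 8, 6 and 7 members and 3781, 2887 and 4717 of all 16783 genes, while DESeq2 called P4HA1 lower with CDK1 KO, TPI1 lower with CDK9 KO and none with CDK7 KO. With CDK7/9 KO 1 was higher and 1 lower (11.3%, or 5.72% and 5.62%). PFKM read 80.1 and 75.8 CPM at 72 and 96 h against 67.0 and 53.1 (0.39 ± 0.10, adjusted p = 0.0391; −0.41 under mitochondrial scaling). TPI1, triose phosphate isomerase, read 411.9 and 397.4 against 493.6 and 591.2 (−0.42 ± 0.12, adjusted p = 0.0428). Both calls were lost without any 1 of the 8 knockout libraries.

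HIF1A differed by 0.32, 0.33, 0.21 and 0.29 in CDK1, CDK7, CDK9 and CDK7/9 KO (adjusted p = 0.116, 0.194, 0.157 and 0.0652), and was 307 and 247 CPM in empty vector, 296 in the parental library and 307 to 370 in the knockouts. Under mitochondrial scaling it turned to −0.03, −0.61 and −0.51 in CDK1, CDK9 and CDK7/9 KO. VEGFA differed by 0.07, 0.14, 0.30 and 0.18, none called, and turned below 0 in all 4 under that scaling. GAPDH read 4061 and 2670 CPM in empty vector, 4143 in the parental library and 2882 to 3858 in the knockouts, with differences of 0.08, 0.19, −0.15 and −0.19, none called, of which the first 2 turned below 0. The empty vector libraries differed from each other in more members than the libraries of any knockout did. Of 30 members at 10 CPM or more in empty vector, PFKL, PFKP, GAPDH and SLC16A3 changed over 1.5-fold between 72 and 96 h there, and none did within any knockout genotype. Without the 72 h empty vector library, 21, 21, 18 and 18 members were called in the 4 genotypes, and without the 96 h one 2, 2, 6 and 11. The share of all genes called in these refits is not given here. The counts therefore show how far calls hung on the empty vector libraries, and nothing particular to these members. The mitochondrial share was 3.775 and 2.599% in empty vector, 5.038 and 5.981% in CDK9 KO and 5.379 and 5.407% in CDK7/9 KO. Under mitochondrial scaling no member was called higher and 34 and 29 were called lower in CDK9 and CDK7/9 KO. Of all 16783 genes 11344 and 11060 were lower there, so the part of this share in the counts cannot be told apart from that of genotype.

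**Figure D5:**
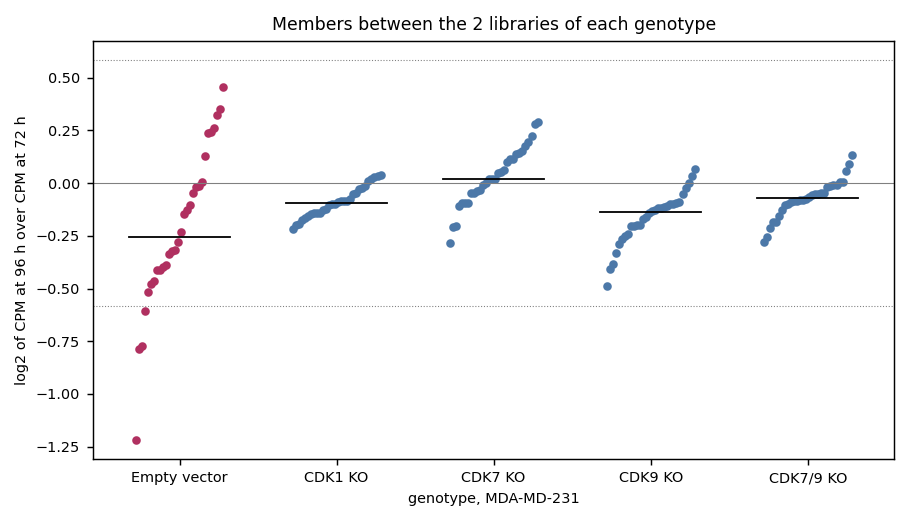
Log2 ratio of the 96 h to the 72 h level (TMM-scaled CPM) of the 30 members at 10 CPM or more in empty vector, 1 point a member in order of size, with the median as a bar and 1.5-fold as dotted lines. As linear ratios, empty vector ranges from 0.43 (PFKP) to 1.37 (PGAM1), and the knockouts from 0.713 to 1.22.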

How the data were processed

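Messenger RNA was measured in 33 libraries. The authors deposited whole-number read counts per gene, not normalized. Alignment used STAR 2.7.10a and the GRCh38 build, and read quality was looked at with FastQC, per the submitters' processing notes. Counting tool, annotation and strand setting were not given in the sources used here, so reads of overlapping genes on opposite strands cannot be told apart. Totals of 16985219 to 22859779 counts make counting error small for all but the rarest members.

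From these counts, edgeR 4.0.16 (R 4.3.3) kept genes by filterByExpr (minimum count 10, minimum total 15), scaled by TMM and tested with its quasi-likelihood F test, with Benjamini-Hochberg adjustment over all genes and a threshold of 0.05. The inhibitor fit (22 libraries, 18911 genes, 11 residual degrees of freedom) had line as a block and a condition of 10 levels, and a second fit (8) let treatments differ by line. The knockout fit (10 libraries, 16783 genes, 4 residual degrees of freedom) had time as a block. DMSO and parental libraries were pooled as 4 controls. SE is the difference over the square root of F. Tested on simulated data over 18510 genes, the SY200/V50 fit recovered 77 of 100 genes changed 2-fold and 98 of 100 changed 4-fold, and over 16426 genes the CDK7/9 fit recovered 99 and 100 of 100. Among unchanged genes 22 and 19 were called. The changed genes had a mean over 100 counts and the same change in every library of that treatment or genotype, with no effect of the others. These shares do not carry over to rarer members or to changes that differ by line or time. Alternatives were DESeq2 size factors, mitochondrial scaling, no filter, DESeq2 1.42.0 with its Wald test, DMSO as the 1 control, no time block, and leaving out each library.

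The named genes were the members called, up to 4 of each role with the smallest adjusted p at a mean of at least 10 CPM, HIF1A, VEGFA and GAPDH in each comparison, and up to 3 of each list of other genes, of which 1 is not reported here. The members, lists and alternatives were chosen with earlier results of these data known. Promoter sequences are RefSeq's (GRCh38.p14).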

Additional observations from a re-analysis of the deposited data

How the results depend on the processing

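With 1 library per line, treatment and time, p-values measure the spread between lines and times, and 11 residual degrees of freedom (4 for the knockouts) limit what can be called. Counting depth limited only members near 0, such as EGLN3, CA9, LDHB and ALDOC in the line with the fewer counts of each. No paired analysis was possible because the labels number no replicates. Line and time were blocks in the fits themselves. No alternative beyond those in the methods was run.

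Scaling to mitochondrially encoded mRNAs changed most, over all genes as well as members. With SY200 at 3 and 6 h it called 1635 and 266 of all 18911 genes lower, and counts of all genes for most other comparisons are given above. Members called under this scaling were 13 with SY200 (1 with TMM), 35 with V50 (16), 4 and 1 with SY200 at 3 and 6 h, 20, 25 and 32 with V50 at 3, 6 and 12 h, 22 with SY200/V50 at 3 h, 1 for the SY200 line effect, 34 with CDK9 KO and 29 with CDK7/9 KO. With no filter they were 2 for V50 at 12 h, 5 for SY200/V50 at 3 h, 1 for V50 at 12 against 3 h, 9 for SY200/V50 against V50, and 4, 2, 5 and 5 for CDK1, CDK7, CDK9 and CDK7/9 KO. With DESeq2's Wald test they were 2 for SY200, 1 at its 6 h, 8 and 11 for V50 at 3 and 12 h, 14 for SY200/V50 at 3 h, 3 and 6 for SY200 and V50 at 12 against 3 h, 1, 1 and 2 for the line effects of SY200, V50 and SY200/V50, and 1 each for CDK1 and CDK9 KO. With DMSO alone as control they were 0 for SY200 and for its 12 h, 7 for V50 at 3 h and 5 for V50 at 12 against 3 h. Without the time block 1 was called with CDK7/9 KO. The cause was not tested.

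Leaving out each library in turn gave ranges of members called: SY200 0 to 2, its 12 h 0 to 3, V50 10 to 18, its 3, 6 and 12 h 0 to 5, 0 to 18 and 0 to 10, SY200/V50 24 to 27, its 3, 6 and 12 h 1 to 10, 13 to 24 and 20 to 29. For 12 against 3 h the ranges were 0 to 1 (SY200), 0 to 4 (V50) and 4 to 15 (SY200/V50). SY200/V50 had 6 to 21 against V50 and 27 to 31 against SY200, the lines 26 to 29, and the SY200/V50 line effect 0 to 1. The knockouts had 0 to 21 (CDK1 and CDK7) and 0 to 18 (CDK9 and CDK7/9). These ranges have no share of all genes beside them, so they show only how far calls hung on single libraries.

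Of 115 named differences, 40 changed sign under mitochondrial scaling, and 1 under DESeq2's size factors and its Wald test: VEGFA with SY200/V50 against V50, at 0.02962 and 0.0296. Under mitochondrial scaling the values with SY200 were HIF1A −0.02091 and GAPDH −0.3853. With V50 they were PFKM −0.2619, PGK1 −0.4784, GPI −0.4295, HIF1A −0.7529 and GAPDH −0.57. With SY200/V50 they were GAPDH −0.6886, PGK1 −0.6254, GPI −0.5624, PFKM −0.4239, PDK3 −0.8818, HIF1A −1.21, PGM1 −0.6524, ELOB −0.5263 and ELOC −0.6898. At 12 against 3 h they were GAPDH −0.2765, PGK1 −0.3188, PKM −0.3316 and P4HA1 −0.1129. Against V50 they were GAPDH −0.1187, PKM −0.1054, PGK1 −0.147, TPI1 −0.09277, PDK1 −0.08129, PDK3 −0.09652, BNIP3 −0.1569 and HIF1A −0.457, and against SY200 GAPDH −0.3033 and PGK1 −0.345. In the knockouts they were HIF1A −0.03105, VEGFA −0.2734 and GAPDH −0.2453 (CDK1), VEGFA −0.1562 and GAPDH −0.08618 (CDK7), HIF1A −0.6063 and VEGFA −0.5118 (CDK9), and PFKM −0.4052, HIF1A −0.5129 and VEGFA −0.6131 (CDK7/9). Leaving out a library turned the sign of differences near 0: GAPDH with SY200 ranged from −0.0117 to 0.06734, VEGFA and HIF1A with SY200/V50 against V50 from −0.1847 to 0.189 and from −0.04138 to 0.1279, and VEGFA with CDK1 KO from −0.06674 to 0.1703. GAPDH ranged from −0.1938 to 0.3402 (CDK1), −0.07024 to 0.4536 (CDK7), −0.409 to 0.1189 (CDK9) and −0.4583 to 0.06822 (CDK7/9 KO). Of the 26 members called with SY200/V50 against control, LDHA and P4HA1 lost the call without some single libraries, and the other 24 kept it whichever of the 22 libraries was left out.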
